A study of Mus musculus with 18 samples.

Results

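Collagen genes were taken as the rows of the table of nascent transcription whose symbol has the form Col, a number, a and a number, and 44 of the 21859 protein-coding genes in that table met this rule. Of the promoter upstream transcripts (PROMPTs), the short RNAs made upstream of a promoter on the opposite strand, 39 of 32253 carried the symbol of a collagen gene. RNA made in 5 min of labelling with 4-thiouridine (4sU) was purified and sequenced (TT-seq) from E14 murine embryonic stem (ES) cells, grown without feeder cells in serum, LIF and inhibitors of GSK and MEK. All cells carried osTIR1, the plant protein that directs degradation of tagged proteins when auxin is present. SPT16, a subunit of the histone chaperone FACT, carried a mini-AID and V5 tag in SPT16_AID_V5 clone 1 and clone 2, each an isolated homozygous clone, and had no tag in the untagged cells. Each of these 3 lines received either 3-IAA or its vehicle, ethanol (EtOH, 0.1% in the labels), for 24 h, with 3 libraries for each of the 6 conditions and 18 in all. In the labels the doses are 500 nM (3-IAA) and 500 mM (4sU), whereas the study's methods state both as micromolar.

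Every value below is a baseMean, the mean number of reads per library after division by the libraries' size factors, or such a mean divided by the length of the gene. The authors' mean covers control and SPT16-depleted libraries together. It therefore describes the transcription of collagen genes in this set of cultures as a whole, with no spread between libraries, and no difference between conditions was analysed here. Where a single library holds a single read, the baseMean depends on that library alone, and 18 such recurring values were found in each table, one for each library. They ran from 0.0216 to 0.115 for genes and from 0.0266 to 0.129 for PROMPTs, so the 2 tables were scaled separately and a level is compared only within a table. The baseMean of all genes summed to 55.9 M normalized reads. In bulk RNA, transcription in few cells and little transcription in every cell cannot be told apart.

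Collagens are the main structural proteins of the extracellular matrix, built of 3 chains wound into a triple helix with glycine at regular steps. Fibrillar collagens form the banded fibrils of bone, cartilage, skin and tendon. Collagen IV forms the network of basement membranes, which in the early embryo are first laid down around the epiblast and by the extraembryonic endoderm. The other classes decorate fibrils (FACITs), form beaded filaments or hexagonal networks, anchor epithelia or span the plasma membrane. Multiplexins, also among them, lie in basement membranes and release fragments, such as endostatin from collagen XVIII. Naive ES cells correspond to the pluripotent cells of the early embryo, before most collagen-rich tissues exist.

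Promoters of 35 of the 44 genes were found in RefSeq on GRCm38.p6, as the 250 bases upstream of the start, and 9 genes are not described here in sequence. Both strands were searched for TATAAA, the core of the TATA box, for CCAAT and for GGGCGG, the core of the GC box, none of which contains another. GGGCGG was found in 21 of the 35 windows (60.0%), CCAAT in 12 (34.3%) and TATAAA in 5 (14.3%). Among 20474 promoters of genes in the table, the shares were 43.9%, 35.3% and 11.4%. For each collagen gene only the promoter nearest the Gencode start was kept, while these 20474 include every promoter listed for a gene. The ratio of observed to expected CpG had a median of 0.446 for collagen promoters and 0.549 for the promoters of genes in the table. In 20 of the 35 windows no exon was annotated, and 5 of these are shown, the 3 among them with the highest PROMPT levels (Col13a1, Col11a1 and Col27a1) and the 2 with the lowest gene levels per kb (Col3a1 and Col24a1), each with GRCm38.p6 position and read on the gene's strand from 5′ to 3′, with matches to the motifs in capitals.
Col13a1 (chr10:61979109-61979358, minus strand): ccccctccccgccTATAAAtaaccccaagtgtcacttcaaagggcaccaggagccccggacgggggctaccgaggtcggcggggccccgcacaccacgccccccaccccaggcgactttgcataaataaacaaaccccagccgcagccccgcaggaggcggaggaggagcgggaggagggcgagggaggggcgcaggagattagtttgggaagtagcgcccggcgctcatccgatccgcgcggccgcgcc
Col11a1 (chr3:114030290-114030539, plus strand): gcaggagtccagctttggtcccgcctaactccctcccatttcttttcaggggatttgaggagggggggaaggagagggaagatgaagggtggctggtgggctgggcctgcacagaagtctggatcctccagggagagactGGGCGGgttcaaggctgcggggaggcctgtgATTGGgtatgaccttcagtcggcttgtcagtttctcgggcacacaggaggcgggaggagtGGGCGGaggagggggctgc
Col27a1 (chr4:63215162-63215411, plus strand): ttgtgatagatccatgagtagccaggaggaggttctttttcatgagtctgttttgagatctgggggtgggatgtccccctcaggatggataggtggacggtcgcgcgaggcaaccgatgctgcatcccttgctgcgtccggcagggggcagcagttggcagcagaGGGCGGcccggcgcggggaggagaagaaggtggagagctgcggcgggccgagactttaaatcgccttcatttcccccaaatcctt
Col3a1 (chr1:45311288-45311537, plus strand): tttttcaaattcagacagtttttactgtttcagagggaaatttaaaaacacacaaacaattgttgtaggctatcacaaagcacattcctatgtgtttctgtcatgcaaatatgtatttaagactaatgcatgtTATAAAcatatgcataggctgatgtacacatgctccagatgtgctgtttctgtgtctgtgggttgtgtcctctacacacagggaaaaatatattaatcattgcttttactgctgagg
Col24a1 (chr3:145292222-145292471, plus strand): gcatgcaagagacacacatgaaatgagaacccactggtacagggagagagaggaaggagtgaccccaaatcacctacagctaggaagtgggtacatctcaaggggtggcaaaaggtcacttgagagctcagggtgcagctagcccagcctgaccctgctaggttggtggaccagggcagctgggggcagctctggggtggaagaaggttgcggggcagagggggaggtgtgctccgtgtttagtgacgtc
For Col27a1 the RefSeq start lies downstream of the start of the Gencode gene, so this window lies within the gene span used for its level. The CpG ratio of these windows was 0.812 for Col13a1, 0.327 for Col11a1, 0.711 for Col27a1, 0 for Col3a1 and 0.155 for Col24a1. Col3a1, whose window held no CpG at all, had a TATAAA match, as did Col13a1, and Col24a1 had none of the 3 motifs. Over the 16 promoters of genes with at least 1 read per kb the median CpG ratio was 0.557, and over the 19 below that level it was 0.430. Across the 35 genes Spearman's rho of CpG ratio and level was 0.342, a description across genes, which share base composition and are not independent. The windows of Col25a1 and Col1a2 also lay within their gene spans, and those of some other genes did so in part. All these windows were kept in the medians and in rho.

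All 44 collagen genes had reads, as did 20157 of all 21859 genes, but most collagen genes were transcribed at a low level. The median collagen gene had 0.827 normalized reads per kb of gene span, against 13.3 for all genes, whose interquartile range was 0.248 to 106.7. Only 4 collagen genes, Col18a1, Col20a1, Col9a3 and Col9a2, lay above the median of all genes per kb. The levels covered a 1728-fold range, from 0.0506 per kb for Col4a3 to 87.4 for Col18a1. The baseMean was 1 or more in 43 of the 44 (97.7%, against 80.9% of all genes), 10 or more in 37 (84.1% against 70.6%) and 100 or more in 21 (47.7% against 57.3%). Summed over the 44 genes the baseMean was 20776, or 0.0372% of that of all genes. Col18a1 alone held 48.1% of it, and the 5 genes with the most reads held 71.6%.

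**Figure D1:**
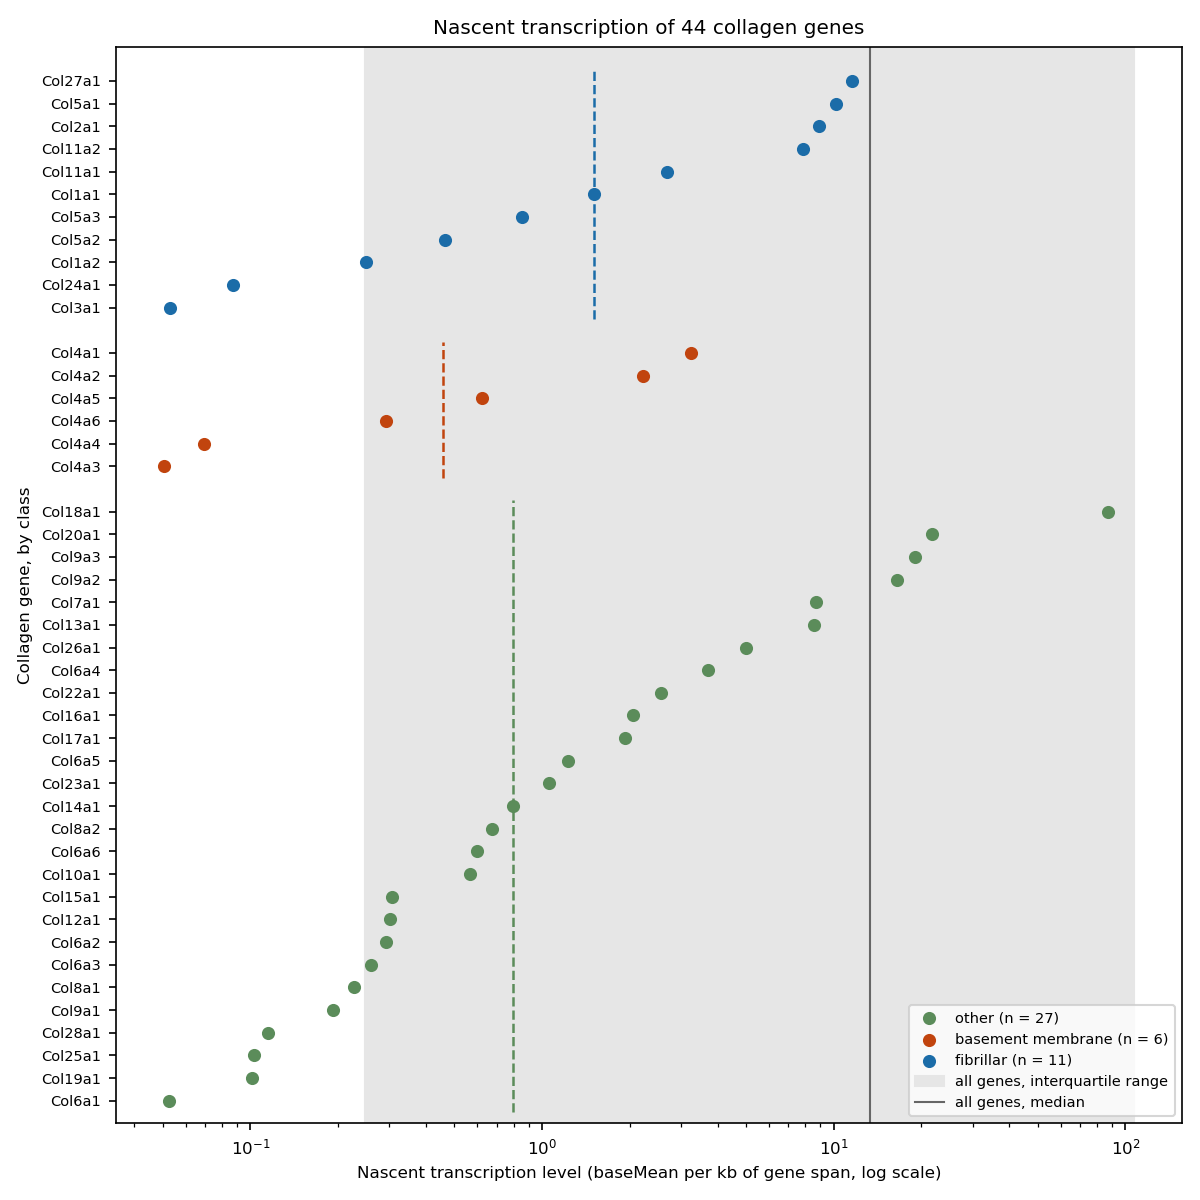
Level of each of the 44 collagen genes by class, as baseMean per kb of gene span on a log axis, 1 point per gene and the median of each class as a dashed line. Col18a1 at 87.4 stands apart from the next gene, Col20a1 at 21.7, and 40 of 44 points lie to the left of the median of all genes (grey line, 13.3).

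The length by which a level is divided matters for these genes. Collagen genes were long, with a median span of 114.4 kb against 17.6 kb for all genes and a median of 48 exons against 7, and exons made up a median of 7.55% of the span against 20.3%. Of 1917 internal coding exons of collagen genes, 63.9% had a length divisible by 9 bases, the length that encodes 1 glycine-led triplet, against 14.3% of those of all genes. In fibrillar collagens the share was 83.9%, and 305 of 627 internal coding exons were exactly 54 bases long. Nascent RNA includes introns, and counting over whole genes was inferred from nested genes listed at 0, so levels are given per kb of span. Divided by exon length in place of span, the order of the classes turned, with medians of 6.26 for fibrillar, 15.6 for basement membrane and 13.6 for other collagens. Without any division by length, 13 of the 44 lay above the median baseMean of all genes, 272.7.

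**Figure D2:**
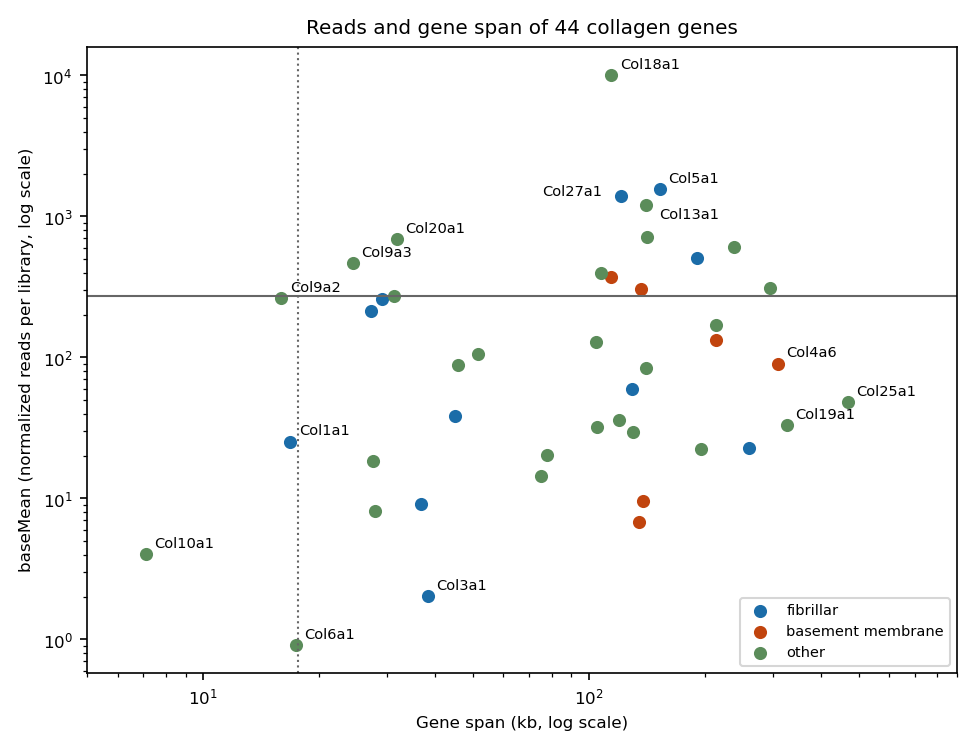
The baseMean of each collagen gene against its gene span, both on log axes, with the median of all genes as a solid line for baseMean (272.7) and a dotted line for span (17.6 kb). Col25a1, the longest at 468377 bp, had a baseMean of 48.2, while Col9a2, with a span of 15938 bp, had 263.2.

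Among the 11 fibrillar collagens the median level was 1.51 per kb, with a range from 0.0532 to 11.5, and the class held 19.7% of the collagen reads. The highest level was that of Col27a1, a fibrillar collagen of cartilage, with a baseMean of 1393 and 11.5 per kb, on chromosome 4 of GRCm38 from 63214004 to 63334991. Col5a1, whose product helps to start fibrils, had a baseMean of 1557 and 10.2 per kb, on chromosome 2 from 27886425 to 28039514. Both lay just below the middle of all genes, at percentiles 48.9 and 48.1 of level per kb. Col2a1, the main collagen of cartilage, followed with a baseMean of 259.7 and 8.93 per kb, on chromosome 15 from 97975602 to 98004695. The cartilage chains Col11a2 and Col11a1 had baseMeans of 213.5 and 511.0, or 7.84 and 2.69 per kb. The main chains of bone, skin and tendon, from Col1a1, Col1a2 and Col3a1, were lower than these 5, although Col1a1 was the median of the class per kb of span. Col1a1 had a baseMean of 25.3 and 1.51 per kb, on chromosome 11 from 94936224 to 94953042, and Col1a2 had a baseMean of 9.17 and 0.250 per kb. Col3a1, the partner of collagen I in skin and vessel walls, was the lowest, with a baseMean of 2.03 and 0.0532 per kb, on chromosome 1 from 45311538 to 45349706. Summed over 18 libraries, that is 36.5 normalized reads over a span of 38169 bp. Col24a1, a fibrillar chain of bone, had 0.0872 per kb, Col5a2 had 0.466 and Col5a3 had 0.856. The 5 fibrillar genes above 2 per kb were thus Col27a1, Col5a1, Col2a1, Col11a2 and Col11a1.

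The 6 chains of collagen IV had a median of 0.459 per kb and 4.41% of the collagen reads, and none reached the median of all genes. Col4a1 and Col4a2, the chains found in nearly all basement membranes, were the highest, with baseMeans of 371.2 and 303.8, or 3.24 and 2.23 per kb. Col4a5 and Col4a6 had 0.625 and 0.293 per kb, while Col4a4 and Col4a3, used in the kidney glomerulus and the lung, had 0.0696 and 0.0506, the last being the lowest of all 44 collagen genes per kb of span, next to Col6a1 (0.0526) and Col3a1 (0.0532), though not by exon length or baseMean, by which it ranked 42 and 41. Per kb of span the levels of the 6 chains thus fell into 3 pairs, and each pair shares a region of the genome, where its genes lie head to head. Col4a1 (chromosome 8, 11198423 to 11312826) and Col4a2 (11312805 to 11449287) overlap by 22 bp at their starts, and their levels differed 1.46-fold. Col4a4 and Col4a3 on chromosome 1 are 71 bp apart, and their levels differed 1.38-fold. Col4a6 and Col4a5 on chromosome X are 1308 bp apart, and their levels differed 2.14-fold. The region between the outermost starts of the first pair is shown because both genes start in it, with the overlap of the 2 genes in capitals and 4 bases on either side, on the plus strand of GRCm38.p6 at chr8:11312801-11312830.
Col4a1 and Col4a2: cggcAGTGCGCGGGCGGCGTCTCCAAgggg
On this strand Col4a2 is read to the right from position 11312805, and Col4a1 is read to the left from position 11312826. By exon length the levels of Col4a1 and Col4a2 were 49.7 and 45.9 per kb, and by the mean exon length of protein-coding transcripts they were 133.7 and 47.1, so that the ratio of the pair was 1.08 or 2.84 depending on the length. By that transcript length Col4a5 had 24.6 per kb, so Col4a2 was nearer to Col4a5 than to Col4a1 and the pairing did not hold.

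The other 27 collagens held 75.9% of the collagen reads, with a median of 0.797 per kb and the widest range. Col18a1 (chromosome 10, 77052178 to 77166548) was the most transcribed collagen gene, with a baseMean of 9997 and 87.4 per kb, at percentile 71.2 of all genes. Its product is a basement membrane proteoglycan and the source of endostatin. Its level per kb was 4.03 times that of the next collagen gene and its baseMean 6.42 times that of the next. Col15a1, the other multiplexin, had a baseMean of 32.2 and 0.306 per kb. The span of Col18a1 overlaps Slc19a1 on the opposite strand, which had 64.9 reads per kb over its own span, and reads were counted by strand.

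FACITs, which lie on the surface of fibrils, held the next largest part of the collagen reads after the multiplexins among the other collagens (11.5%), with a median of 2.05 per kb over 9 genes. Col20a1 had a baseMean of 690.1 and 21.7 per kb, Col9a3 had 464.1 and 19.0, and Col9a2 had 263.2 and 16.5. These 3 were above the median of all genes and the other 6 FACITs were not, from Col22a1 (2.56 per kb), Col16a1 (2.05) and Col14a1 (0.797) to Col12a1 (0.300), Col9a1 (0.193) and Col19a1 (0.102). Col9a3 overlaps the opposite-strand gene Tcfl5, whose level was 53.1 per kb. The nearest start of another protein-coding gene lay 19310 bp from that of Col20a1 (Arfgap1) and 8545 bp from that of Col9a3 (Ogfr). For Col9a2 it lay 22138 bp away (Smap2). These distances run from start to start among protein-coding genes and do not give the distance to the end of a neighbouring gene. The promoter window of Col20a1 held an annotated exon of another gene, BX649560.1. That of Col9a2 held only an exon of Col9a2 itself, and Col9a3 had no promoter window. Whether reads running past the ends of neighbouring genes add to the counts of Col20a1, Col9a3 and Col9a2 was not tested. Of the transmembrane collagens, Col13a1, found at cell adhesions, had a baseMean of 1209 and 8.58 per kb. Col17a1, a part of hemidesmosomes, had 1.93, Col23a1 had 1.06 and Col25a1, which acts in motor neuron innervation of muscle, had 0.103. Col7a1, the anchoring fibril of skin, had 8.72 per kb, and its baseMean of 272.7 equalled the median of all genes.

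The beaded filament collagens of type VI had a median of 0.445 per kb, and the 3 chains of classical collagen VI were the lower ones. Col6a1 had a baseMean of 0.915, the only one of 44 below 1, and 0.0526 per kb. This corresponds to 16.5 normalized reads over 18 libraries. Col6a2 had 0.291 and Col6a3 0.259 per kb. The later-described chains Col6a4, Col6a5 and Col6a6, which lie in a row on the same strand of chromosome 9, had 3.70, 1.23 and 0.599 per kb, falling in the order in which they lie along the strand. Their gaps are 28810 bp between Col6a5 and Col6a4 and 27917 bp between Col6a6 and Col6a5. Hexagonal network collagens were low, with 0.674 for Col8a2, 0.227 for Col8a1 and 0.569 for Col10a1, the collagen of growth plate cartilage. Col10a1 lies within Nt5dc1 on the opposite strand, a gene with 36.0 reads per kb, 63.3 times the level of Col10a1, and the part of reads assigned to the wrong strand was not tested. Col26a1 had a baseMean of 710.2 and 5.02 per kb, and Col28a1 had 22.3 and 0.115.

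Many collagens are assembled from the products of several genes, and nascent transcription of such partners often differed widely. For collagen I, 2 of whose chains come from Col1a1 for each from Col1a2, Col1a1 was 6.03 times as high as Col1a2 per kb of span. For collagen V, Col5a1 was 21.8 times as high as Col5a2, and for collagen IX, Col9a3 was 98.7 times as high as Col9a1, with Col9a2 close to Col9a3. For collagen VI the highest chain, Col6a2, was 5.54 times Col6a1, and for collagen VIII Col8a2 was 2.97 times Col8a1. Among the chains of collagen XI, which include that of Col2a1, the range was 3.32-fold. For collagen IV built of chains 3, 4 and 5, Col4a5 was 12.4 times Col4a3. By exon length the same pairs gave 5.23 for collagen I, 29.3 for collagen V, 42.2 for collagen IX, 4.67 for collagen VI and 29.0 for collagen IV of chains 3 to 5, and the highest chain of collagen VI was then Col6a3, at 8.08 times Col6a1. By the mean exon length of protein-coding transcripts, an alternative for these ratios added after the data were seen, they were 36.3 for collagen V, 37.5 for collagen IX, 8.46 for collagen VI and 16.5 for collagen IV of chains 3 to 5, but 1.44 for collagen I. For collagen VIII the ratio was 1.09 by exon and 1.37 by transcript length, so the sizes of the differences within collagens I and VIII rest on the length used. For collagen XI, Col11a1 was the highest chain by exon and by transcript length and the lowest by span.

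**Figure D3:**
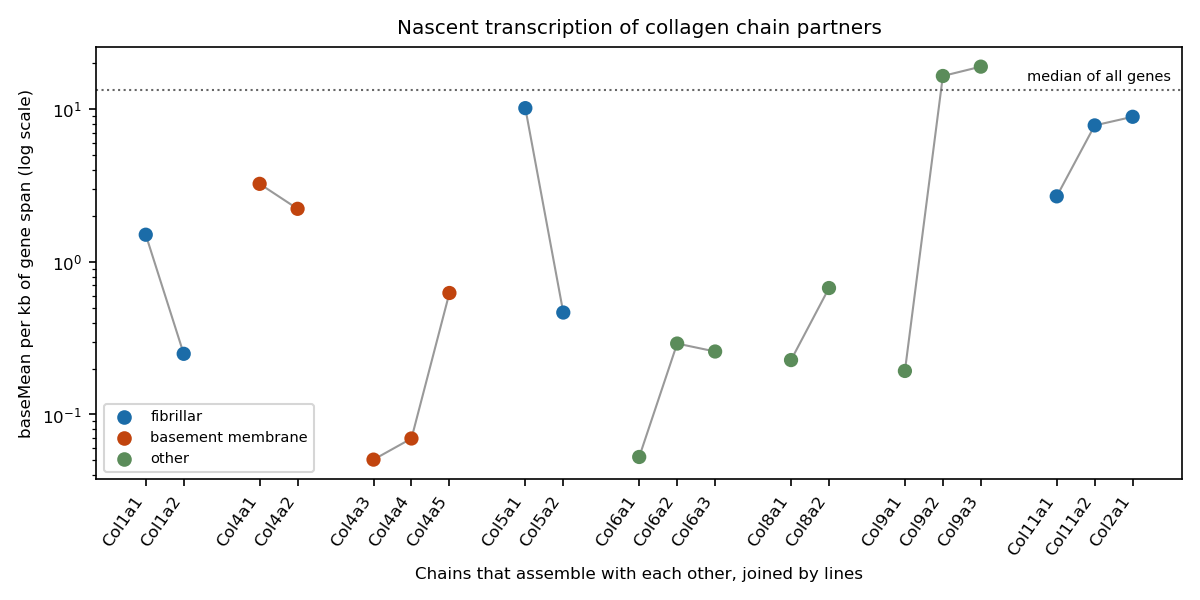
Level of each chain in 8 sets of collagen chains that assemble with each other, as baseMean per kb of gene span on a log axis, partners joined by a line. Col4a1 and Col4a2 are close (3.24 and 2.23), while Col9a1 (0.193) lies far below Col9a2 (16.5) and Col9a3 (19.0).

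Collagen genes that lie next to each other in the genome were not always alike. Col3a1 and Col5a2 on chromosome 1 lie tail to tail, 24614 bp apart, with starts 191744 bp apart, and Col5a2 was 8.76 times as high per kb. Col9a1 and Col19a1, tail to tail with a gap of 9205 bp, differed 1.90-fold, and both were below 0.2 per kb. Col6a2 and Col6a1 on chromosome 10, on the same strand 85161 bp apart, differed 5.54-fold. Across the 8 neighbouring pairs, the 3 head to head pairs differed per kb of span by 1.38 to 2.14-fold and the other 5 by 1.90 to 8.76-fold, a description of so few pairs without a test. It rests on the length used. By the mean exon length of protein-coding transcripts, Col4a1 and Col4a2 differed 2.84-fold, while Col6a5 and Col6a6, on the same strand, had 14.8 and 12.7 per kb.

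PROMPTs of collagen genes were scarce. Of 39, 14 were listed at 0 and 25 (64.1%) had reads, against 72.1% of all PROMPTs. Only 3 (7.69%) had a baseMean of 1 or more, against 33.7% of all PROMPTs and 42.8% of those whose symbols are in the gene table. Among PROMPTs of genes within the interquartile range of collagen baseMean, 37.6% reached 1. That match was by baseMean and not by level per kb. Collagen genes were longer, with a median span of 114.4 kb against 17.6 kb for all genes, so the match need not hold per kb. Whether collagen PROMPTs were scarcer than those of genes with like levels per kb was not tested. None of the 39 reached 10, as 11.5% of all PROMPTs did. The highest was that of Col8a2, with a baseMean of 3.37, at percentile 78.8 of all PROMPTs, although the gene ranked only 24 of 44 by level per kb. The PROMPTs of Col13a1 and Col18a1 followed, with 1.19 and 1.14, and then those of Col11a1 (0.958), Col2a1 (0.570) and Col27a1 (0.532). These 5 genes lay among the 14 highest collagen genes per kb.

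**Figure D4:**
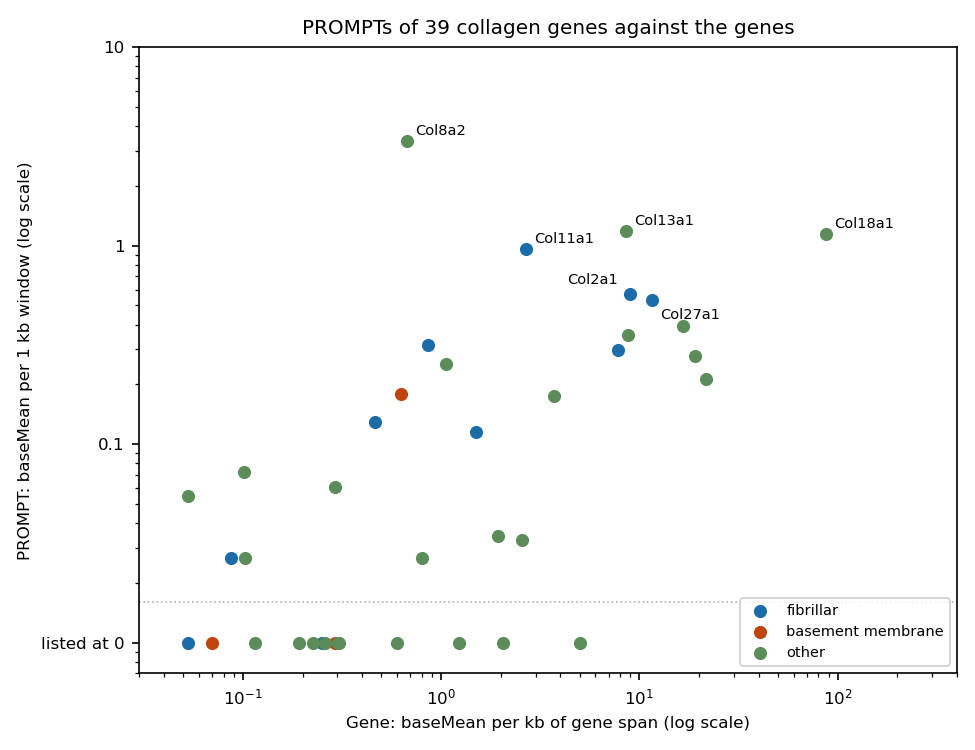
PROMPT level against gene level for the 39 collagen genes listed in both tables, as baseMean per 1 kb PROMPT window and per kb of gene span, on log axes, with the 14 PROMPTs listed at 0 drawn at the foot. The 2 tables were scaled separately, so positions compare genes within an axis. Only Col8a2 (3.37), Col13a1 (1.19) and Col18a1 (1.14) exceed 1.

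By class, 8 of 10 fibrillar, 1 of 3 basement membrane and 16 of 26 other collagen PROMPTs had reads, and all 3 that reached a baseMean of 1 belonged to the other class. The 1 basement membrane PROMPT with reads was that of Col4a5, at 0.179. Col4a1, Col4a2, Col4a3, Col5a1 and Col10a1 had no PROMPT row, and in the annotation the 1 kb upstream of each holds another gene on the PROMPT strand. The PROMPTs of 7 genes, Col6a2, Col6a1, Col17a1, Col22a1, Col14a1, Col25a1 and Col24a1, had exactly the value of 1 read in 1 library, so nothing can be read from their order. The order of PROMPT and gene levels was related across the 39 genes (Spearman's rho 0.641), which share the libraries and whose PROMPTs rest on few reads. Col26a1, which ranked 11 by level per kb, had its PROMPT listed at 0, as did Col16a1, which ranked 17. Windows of 4 listed PROMPTs, those of Col6a4, Col16a1, Col15a1 and Col4a4, overlap another annotated gene on the PROMPT strand, and without them the number at 1 or more was again 3.

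Most of the machinery that makes and folds collagen was transcribed more than most collagens. All 17 processing enzymes and chaperones of the endoplasmic reticulum had reads, their median was 81.9 per kb, and 13 lay above the median of all genes. P4hb, a subunit of prolyl 4-hydroxylase and a protein disulfide isomerase, had 570.6 per kb, Ppib, a prolyl isomerase, 218.2, Colgalt1, which adds galactose to hydroxylysine, 216.1, and Crtap, a part of the prolyl 3-hydroxylase complex, 149.0. Serpinh1, the collagen chaperone HSP47, had 91.9. The lowest were Colgalt2 (0.574), P4ha3 (0.443) and P3h2 (0.287), the 3 below the collagen median of 0.827. Several of these proteins also act on other clients. The 12 genes of extracellular maturation, which trim and crosslink collagen, had a median of 4.27 per kb, led by Pcolce (74.9, overlapping Fbxo24 on the same strand), Pcolce2 (40.2), Loxl3 (20.2) and Loxl1 (12.6), while Lox had 0.0839. The 9 receptors had a median of 1.47 per kb. Itgb1, the shared beta chain of many integrins, had 156.2, and Ddr1, a collagen-binding kinase, 24.1, with Itga10 at 16.9 (overlapping Gm42957 on the same strand) and Ddr2 at 4.05. The collagen-binding alpha chains Itga1 and Itga2 had 0.0656 and 0.154. The span of Itga1 overlaps Pelo and Gm49395 on the same strand, where shared reads would be dropped if counting was over whole spans. Among 5 collagenases and gelatinases the median was 1.59 per kb, with Mmp14 at 20.4, Mmp2 at 7.06, Mmp9 at 1.59 and Mmp8 at 0.110.

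Basement membrane proteins other than collagen IV were mostly transcribed more. The 16 laminin, nidogen, perlecan, agrin and Sparc genes had a median of 107.9 per kb, against 0.459 for collagen IV, and 11 of them exceeded the median of all genes. Nid2, a nidogen that links laminin to collagen IV, had 414.7 per kb, Agrn 388.5, Lamc1, the common gamma chain of laminins, 336.1, and Lama5 286.0. Lamc1 was 103.6 times as high as Col4a1, the highest collagen IV chain. Hspg2, which encodes perlecan, had 153.5, Lama1 151.0 and Nid1 138.3. Of the collagens, Col18a1 (87.4 per kb), itself a basement membrane component, came closest to the median of this list. The list also held low members. Lama4 (2.29 per kb), Lamb3 (0.898), Lamc3 (0.763) and Lama2 (0.298) were below Col4a1, and Lama2 was below the median of collagen IV.

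**Figure D5:**
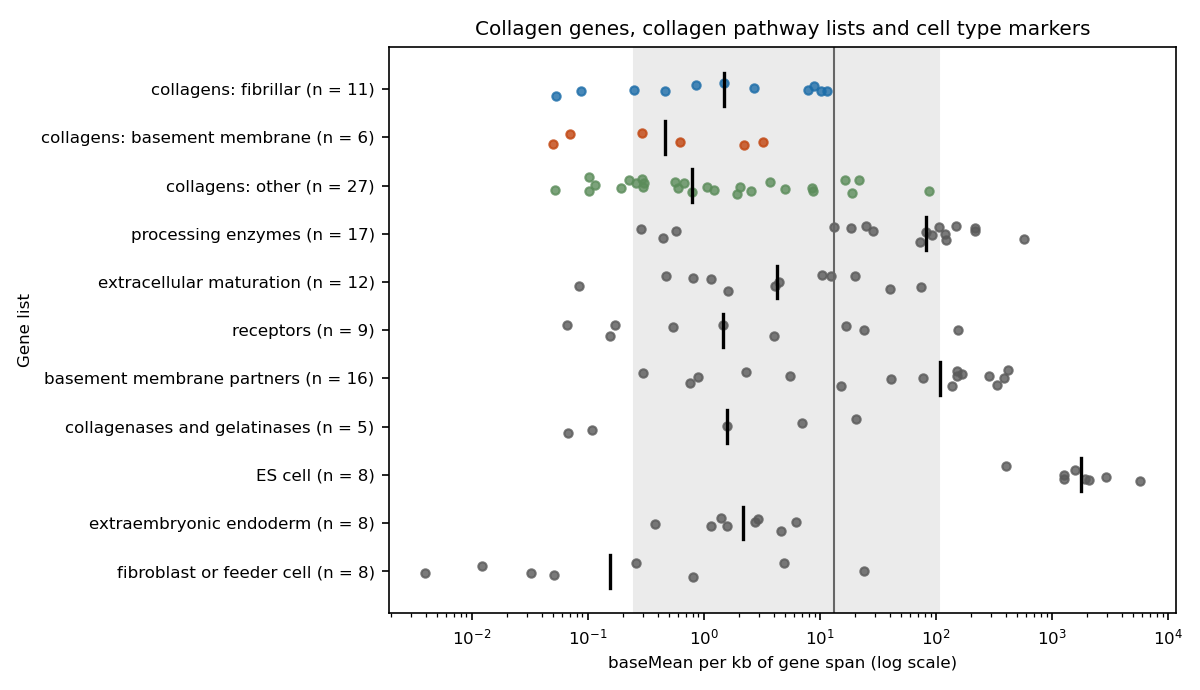
Level of each gene in the 3 collagen classes, 5 lists of the collagen pathway and 3 lists of cell type markers, as baseMean per kb of gene span on a log axis, with list medians as black bars and the median and interquartile range of all genes as a grey line and band. Processing enzymes (median 81.9) and basement membrane partners (107.9) lie to the right of the collagens (0.459 to 1.51).

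Markers of the labelled cell type and of other cell types were read in the same means. These cover control and SPT16-depleted libraries together, so they do not describe the control cells alone. The 8 ES cell markers were all high, with a median of 1772 per kb and a range from 401.4 for Esrrb to 5779 for Dppa5a. The 8 markers of extraembryonic endoderm, a cell type that makes much collagen IV, had a median of 2.17 per kb, from 0.378 for Sox7 to 6.26 for Gata4, and none was listed at 0. The 8 fibroblast or feeder cell markers had a median of 0.156, and none was listed at 0. Pdgfrb alone held 95.1% of the reads of that list (23.8 per kb), and Thy1 followed with 4.94 per kb. The matrix genes Postn, Dcn and Lum had 0.00396, 0.0510 and 0.811 per kb, and Twist2, Prrx1 and Fap had 0.260, 0.0321 and 0.0123. The part of such cells, or of the SPT16-depleted cultures, in the low marker and collagen signals was not tested.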

How the data were processed

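TT-seq libraries of E14 ES cells were used, 18 in all. Per the study's methods, the authors used Trim Galore for trimming and STAR for alignment to mm10, kept unique alignments, counted read pairs by strand with featureCounts, without a filter on expression, and normalized with DESeq2. HTSeq and deepTools are named in the submitters' processing notes. Versions are not given in the sources used here. The deposited signal is baseMean, the authors' mean over libraries of counts divided by size factors. The deposited log2 fold change, standard error, p-value and adjusted p-value columns hold the authors' own comparison and were not used. No test was run, since counts per library were not analysed here, and the spread between libraries and its effect on any order of genes is not known here. The tables of DHS transcripts and eRNAs were not used, since their regions carry no gene names.

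Genes of the table were matched by Ensembl identifier to Gencode vM21 on GRCm38 (21817 of 21859, all 44 collagens), while the authors counted on vM25. Levels were planned per kb of exon. They are given per kb of span, because genes nested in another gene on the same strand without a shared exon were listed at 0 in 188 of 190 cases, as counting over whole spans that drops shared reads gives. No collagen gene overlaps another of the 21817 matched protein-coding genes on its own strand. Other annotated genes were not searched for such overlaps. Collagen genes, classes, lists and alternatives were chosen with earlier results of these data known. Given with values are, in each class, at least the 4 highest and 2 lowest genes per kb of exon, all neighbouring collagen genes, the 6 highest PROMPTs, and up to 4 genes of each pathway list. The single-read search took values up to 0.2 with at least 0.06 of the frequency of the most frequent one, leaving out sums of 2 such values. Alternatives were other lengths, class limits, count levels and left-out members. Python 3.11.15, numpy 2.4.6, pandas 2.3.3 and matplotlib 3.10.9 were used.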

Additional observations from a re-analysis of the deposited data

How the results depend on the processing

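The class medians depended on the length by which levels were divided. Per kb of exon they were 6.26 for fibrillar, 15.6 for basement membrane and 13.6 for other collagens, and with the mean exon length of protein-coding transcripts they were 9.06, 19.1 and 14.8, so the fibrillar class was the highest by span and the lowest by exon. Exons made up a median of 15.1% of the span in fibrillar genes, against 5.69% in basement membrane and 7.94% in other collagens. With Col7a1, Col15a1 and Col18a1 in the basement membrane class, its median was 0.625 and that of the other class 0.735. With only members at a baseMean of at least 1, which leaves out Col6a1, the other class had 0.929. At a baseMean of at least 100, the number of genes was 5 fibrillar, 3 basement membrane and 13 other, and at 10 no PROMPT remained, with 0. Without the highest member, the share of collagen reads was 13.2% for fibrillar, 2.67% for basement membrane and 53.5% for other. In alternatives added after the data were seen, 8 collagen genes exceeded the median of all genes per kb of exon and 13 without division by length, in place of 4. Of the other 7 alternatives, 4 kept the value. The other 3 are the counts at a baseMean of at least 10, which were 9 fibrillar, 4 basement membrane and 24 other genes, in place of 11, 6 and 26.

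PROMPT levels were not divided by gene levels, since the 2 tables were scaled separately. No paired analysis was possible because the tables used here hold 1 value over all libraries, and leaving out a library was not done for the same reason.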

Other observations

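Most genes nested in another gene on the same strand, none of them a collagen, were listed at 0, from which counting over whole gene spans was inferred. Of 192 genes nested in another gene on the same strand with a shared exon, all were listed at 0, and of 190 without a shared exon 188 were, against 6.03% of 21401 genes that are not nested. Rpl13, Cox4i1, Cdt1 and Foxc2, all within the 4434882 bp span annotated as Galnt2l on chromosome 8, were among them.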
